A study of Mus musculus with 16 samples.

Results

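The 44 genes described here are the mouse collagen genes of the table, chosen as every gene whose symbol is Col, a type number, the letter a and a chain number, out of 49585 genes measured. RNA-seq was performed on inner hair cells (IHCs) and outer hair cells (OHCs), the sensory cells of the cochlea, that were drawn by pipette from the organ of Corti of CBA mice (CBA/J in the study's methods) of both sexes. The 4 labelled groups of 4 libraries each are 26m OHC (OHCs at 26 months), 9m OHC (OHCs at 9 months), 26m IHC (IHCs at 26 months) and 9m IHC (IHCs at 9 months). No transgene or treatment is named for any group, and the study asked which genes change in hair cells with age. Each library pools many cells of several mice, and the dissected tissue was digested briefly with a collagenase before the cells were drawn. The rule uses the gene name alone and no measured value, although the family was picked with earlier results of these data known.

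Collagens are the main structural proteins of the extracellular matrix. Their chains wind into a triple helix, which needs a glycine at each turn of the repeat Gly-X-Y, and a type is built from the chain of 1 gene or from the chains of several. Types II, IX and XI form the fibrils of cartilage and of the tectorial membrane, the acellular gel over the hair bundles, and human mutations of their chains cause syndromic or non-syndromic hearing loss. Type IV forms the sheet of basement membranes, while types I, III, V and VI come mainly from fibroblasts. Hair cells are epithelial and are not known as the main source of any of these.

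The coding sequences show what the family shares and where its classes part. In the following 90-base stretches (GENCODE M21, GRCm38, 5′ to 3′), which are shown because the chains in them lead the results below or mark the class, capitals mark the glycine codons that keep the repeat of 1 glycine in 3 residues.
Col9a3: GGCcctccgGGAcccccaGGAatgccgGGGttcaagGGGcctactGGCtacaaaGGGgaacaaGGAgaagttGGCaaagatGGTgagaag
Col11a2: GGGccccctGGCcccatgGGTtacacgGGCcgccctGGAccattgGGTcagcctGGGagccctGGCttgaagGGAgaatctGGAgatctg
Col2a1: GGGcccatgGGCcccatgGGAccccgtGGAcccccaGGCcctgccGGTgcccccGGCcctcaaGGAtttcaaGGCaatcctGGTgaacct
Col4a5: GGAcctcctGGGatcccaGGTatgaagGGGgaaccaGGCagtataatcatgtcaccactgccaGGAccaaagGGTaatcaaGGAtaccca
The stretch of *Col9a3* (codons 177 to 206; gene at chr2:180597790-180622189, + strand) lies in its longest unbroken run, as do those of *Col11a2* (codons 487 to 516; chr17:34039437-34066685, + strand) and *Col2a1* (codons 201 to 230; chr15:97975602-98004695, − strand). The basement membrane chain *Col4a5* (codons 147 to 176; chrX:141475385-141689234, + strand) is shown across a break, and 8 glycine codons in all keep the repeat before and after the interruption. Counting runs of at least 5 triplets in the longest coding sequence of each gene, the longest run reached 339 triplets in *Col2a1* and 338 in *Col11a1* and *Col11a2*. It was 113 in all the type IX chains (*Col9a1*, *Col9a2*, *Col9a3*) and 217 in *Col27a1*. The type IV chains hold more triplets in all (425 to 444) but in 22 to 27 runs, none longer than 66. Despite the shared repeat, 36 of the 44 genes had no 75-base window in common with the transcript of another gene, and the largest share, 5.0%, was that of *Col9a3* with *Tcfl5* and of *Col4a3* with *C430014B12Rik*, which overlap them on the opposite strand.

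**Figure D1:**
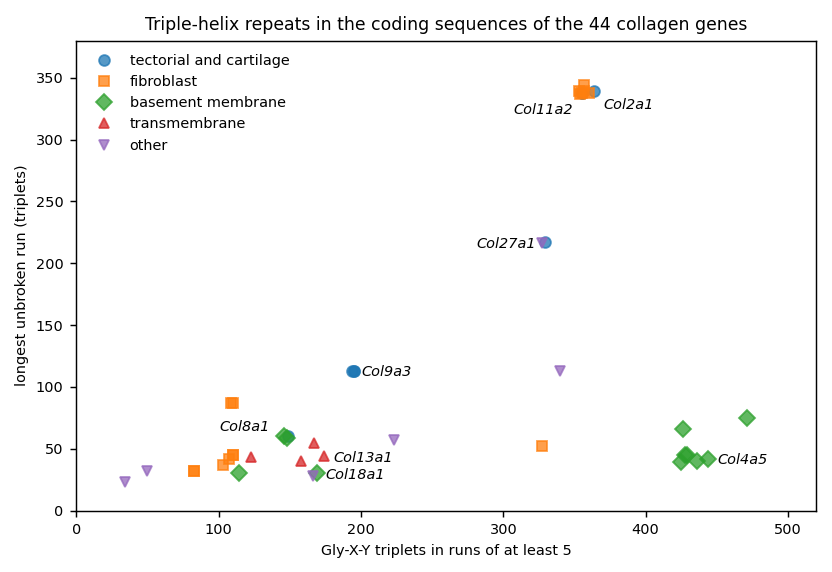
Gly-X-Y triplets in runs of at least 5 (x axis, number of triplets) against the longest unbroken run (y axis, triplets) for the coding sequences of the 44 collagen genes, 1 point per gene and 1 symbol per class. *Col2a1* (339 triplets) and *Col11a2* (338) sit at the top with the fibrillar chains of the fibroblast class, and *Col4a5* lies far to the right with a longest run of 42.

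Some libraries went against their labels, which bears on each comparison below. *Slc26a5*, the prestin gene of OHCs, averaged 1.85 RPKM in libraries labelled 26m OHC, 0.172 in 9m OHC, 816 in 26m IHC and 1.07 in 9m IHC. *Otof*, the otoferlin gene of the IHC synapse, averaged 76.8, 138, 23.5 and 350 RPKM in that order. Summed over 6 genes, OHC markers were at 14620 to 14830 RPKM in libraries labelled 26m IHC and at most 1200 in the other groups, while IHC markers were lowest there. Groups are therefore named by their labels only. If the labels 26m IHC and 9m OHC stood for each other, the comparisons 9m OHC against 9m IHC and 26m OHC against 26m IHC would be the age comparisons, and the interaction of age and cell type would keep its value. Within a group, the first library differed from the second, and the third from the fourth, by no more than sampling noise, so the mean of each such pair served as 1 sample (n = 2 per group). The chi-square averaged over genes was 0.982 to 1.078 in these 8 pairs and 2.697 to 3.438 in the other 16. The series design calls every library a biological replicate of several mice, the study's methods name 2 biological replicates with 2 technical repeats in one place and 3 biological replicates in another. The p-values below measure only the spread between the 2 averaged samples, which may be technical. Mapped reads, worked out from the smallest steps in RPKM, came to 19990435 to 21226800 per library in 26m OHC, 19666190 to 21030345 in 9m OHC, 23161311 to 25617032 in 26m IHC and 28826644 to 31243721 in 9m IHC.

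Collagen transcripts were rare in all groups. Of the 44 genes, 40 had a read in at least 1 library and 4 were at 0 in all 16 (*Col6a4*, *Col6a5*, *Col17a1* and *Col28a1*). Only *Col9a3* passed a mean of 10 RPKM in a group, 13 genes reached 1 RPKM, 16 lay between 0.1 and 1, and 11 stayed below 0.1. Their summed level was 31.2 ± 0.139 RPKM in 26m OHC, 15.8 ± 0.413 in 9m OHC, 35.8 ± 0.0729 in 26m IHC and 34.2 ± 0.309 in 9m IHC (SD, n = 2). Libraries labelled 9m OHC were lowest, at 15.4 to 16.1 RPKM each, below every library of the other groups (30.9 to 36.0). By reads, collagens made up 0.0215% to 0.0219% of a library in 26m OHC, 0.00893% to 0.00933% in 9m OHC, 0.0188% to 0.019% in 26m IHC and 0.0202% to 0.0204% in 9m IHC. In bulk samples, fewer cells of a type and less RNA per cell cannot be told apart.

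**Figure D2:**
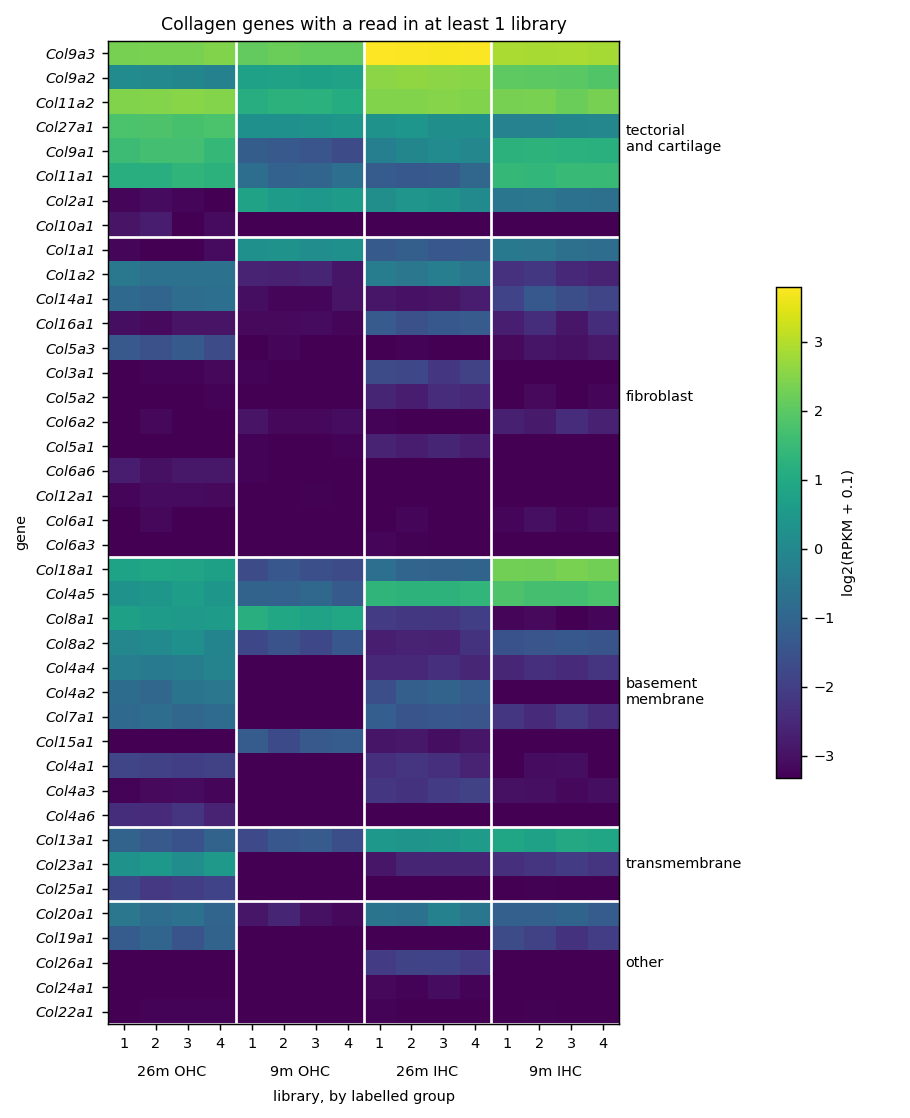
Level of the 40 collagen genes with a read, as log2(RPKM + 0.1) by colour, with genes in rows grouped by class and the 16 libraries in columns grouped by label. The type IX and XI chains hold the brightest rows, and most rows are dark in the 4 libraries labelled 9m OHC.

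The tectorial and cartilage class (8 genes) held most of the collagen signal in each group. It summed to 20.0 ± 0.123 RPKM in 26m OHC, 11.4 ± 0.168 in 9m OHC, 28.1 ± 0.236 in 26m IHC and 22.2 ± 0.388 in 9m IHC, or 64.1%, 71.7%, 78.6% and 65.0% of all collagen RPKM. The fibroblast class (15 genes) summed to 1.38 ± 0.0299, 1.21 ± 0.0636, 1.59 ± 0.0342 and 1.04 ± 0.122 RPKM in the same order, and the basement membrane class (11 genes) to 7.28 ± 0.113, 2.99 ± 0.179, 3.96 ± 0.0263 and 8.59 ± 0.125 RPKM (SD, n = 2). The tectorial and cartilage sum over that of the fibroblast and basement membrane classes together was 2.31 ± 0.024 in 26m OHC, 2.71 ± 0.117 in 9m OHC, 5.08 ± 0.035 in 26m IHC and 2.31 ± 0.041 in 9m IHC. The ratio was therefore highest in libraries labelled 26m IHC, where *Col9a3* and *Col9a2* peaked, and in 26m OHC and 9m IHC it differed by less than the spread between replicates. No test was run on these sums.

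**Figure D3:**
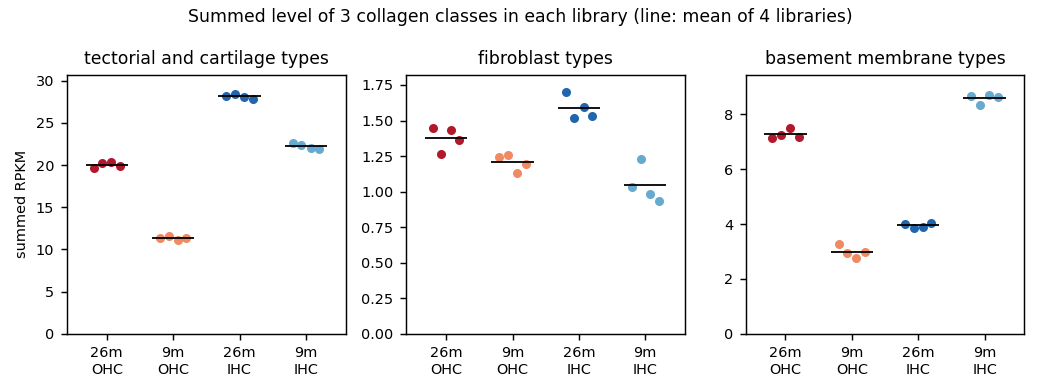
Summed RPKM of the tectorial and cartilage (8 genes), fibroblast (15) and basement membrane (11) classes in each library, with the mean of 4 libraries as a line. Each y axis starts at 0 and has its own range. The tectorial and cartilage sum is highest in 26m IHC (28.1 RPKM) and lowest in 9m OHC (11.4 RPKM), while the basement membrane sum is highest in 9m IHC (8.59 RPKM).

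Type IX collagen, which coats fibrils of types II and XI, led the family. *Col9a3*, its α3 chain, was at 4.92, 5.03, 5.09 and 5.36 RPKM in the libraries labelled 26m OHC, 4.16, 4.48, 4.22 and 4.28 in 9m OHC, 13.8, 13.5, 13.2 and 13.5 in 26m IHC and 7.35, 7.19, 7.30 and 7.08 in 9m IHC. *Col9a2*, the α2 chain (chr4:121039385-121055322), was at 0.974, 0.928, 0.857 and 0.774 RPKM in 26m OHC, 1.59, 1.61, 1.54 and 1.604 in 9m OHC, 5.78, 6.00, 5.79 and 5.69 in 26m IHC and 4.03, 3.89, 3.83 and 3.52 in 9m IHC. Both chains were highest in every 26m IHC library and next in 9m IHC, and no 2 groups overlapped for either. *Col9a1*, the α1 chain (chr1:24177610-24252684), was at 2.85, 3.10, 3.07 and 2.56 RPKM in 26m OHC, 0.331, 0.300, 0.271 and 0.218 in 9m OHC, 0.747, 0.863, 0.980 and 0.883 in 26m IHC and 2.31, 2.32, 2.25 and 2.18 in 9m IHC. It followed another order than its partner chains, with 26m OHC and 9m IHC high and 9m OHC lowest in each library. The ratio of *Col9a1* to *Col9a3* (per length) was 0.568 ± 0.042 in 26m OHC, 0.0652 ± 0.011 in 9m OHC, 0.0645 ± 0.0078 in 26m IHC and 0.313 ± 0.0068 in 9m IHC (SD, n = 2), although all these chains enter 1 heterotrimer.

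*Col9a1* rose in 26m OHC over 9m OHC (log2 difference 2.98 ± 0.11, adjusted p = 1.71e-05) and fell in 26m IHC against 9m IHC (-1.29 ± 0.08, adjusted p = 6.15e-05), limma on log2(RPKM + 0.1). The difference between those differences, the interaction, was 4.28 ± 0.15, adjusted p = 2.19e-07. *Col9a2* and *Col9a3* passed in neither labelled age comparison, since their changes were under 1 on the log2 scale. For *Col9a3* they were 0.24 ± 0.04 in OHC libraries, a direction that turned to -0.15 under median ratio scaling and -0.28 under quantile normalization, and 0.89 ± 0.03 in IHC libraries. For *Col9a2* they were -0.78 ± 0.09 and 0.60 ± 0.05. Between the libraries labelled 26m OHC and 26m IHC, *Col9a2* fell (-2.59 ± 0.08, adjusted p = 4.59e-06) and so did *Col9a3* (-1.39 ± 0.04, adjusted p = 3.6e-06), whereas *Col9a1* rose (1.63 ± 0.09, adjusted p = 2.77e-05).

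Type XI collagen, which sets the width of cartilage and tectorial fibrils, came next. *Col11a2* was at 5.39, 5.53, 5.69 and 5.52 RPKM in 26m OHC, 2.07, 2.28, 2.25 and 2.03 in 9m OHC, 5.33, 5.34, 5.62 and 5.39 in 26m IHC and 4.97, 5.05, 4.50 and 4.99 in 9m IHC. Libraries labelled 9m OHC stood lowest, while 26m OHC and 26m IHC overlapped. *Col11a1*, its partner chain (chr3:114030540-114220718), was at 2.12, 2.12, 2.41 and 2.30 RPKM in 26m OHC, 0.490, 0.369, 0.400 and 0.508 in 9m OHC, 0.318, 0.291, 0.303 and 0.409 in 26m IHC and 2.56, 2.55, 2.67 and 2.74 in 9m IHC. Like *Col9a1*, it was high in 26m OHC and 9m IHC and low in 9m OHC and 26m IHC, which overlapped. It rose in the labelled OHC age comparison (2.11 ± 0.08, adjusted p = 1.58e-05) and fell in the IHC one (-2.67 ± 0.09, adjusted p = 5.2e-06), and the interaction was 4.78 ± 0.12, adjusted p = 5.12e-08. *Col11a2* rose in OHC libraries (1.32 ± 0.04, adjusted p = 1.01e-05), which under median ratio scaling became 0.93 and was no longer called, and differed by 0.15 ± 0.05 in IHC libraries, under the fold required.

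Type II collagen, the main fibril of cartilage, had a pattern of its own. *Col2a1*, its only chain, was at 0.00798, 0.0157, 0.00834 and 0 RPKM in 26m OHC, 1.62, 1.44, 1.30 and 1.44 in 9m OHC, 1.04, 1.20, 1.14 and 0.968 in 26m IHC and 0.594, 0.608, 0.543 and 0.524 in 9m IHC. The 26m OHC libraries held 4 reads in all, against 710 in 9m OHC, 637 in 26m IHC and 409 in 9m IHC, so that it was lowest in a group in which *Col9a1* and *Col11a1* were high. The ratio of 26m OHC to 9m OHC was 0.00559 (95% exact interval 0.00152 to 0.0144, for counting error only), and the fall passed the test (-3.84 ± 0.09, adjusted p = 4.96e-06). In IHC libraries the difference was 0.83 ± 0.09, and the interaction was -4.67 ± 0.13, adjusted p = 7.05e-08. *Col2a1* therefore went the other way from *Col9a1*, *Col11a1* and *Col11a2*, with which its protein shares fibrils, in the labelled OHC age comparison.

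*Col27a1*, a long fibrillar collagen of cartilage (chr4:63214004-63334991), was at 3.35, 3.44, 3.23 and 3.32 RPKM in 26m OHC, 1.10, 1.10, 1.15 and 1.26 in 9m OHC, 1.13, 1.24, 1.07 and 1.08 in 26m IHC and 0.796, 0.791, 0.869 and 0.892 in 9m IHC. It stood above 3 RPKM only in 26m OHC, and 9m OHC and 26m IHC overlapped. It rose in 26m OHC over 9m OHC (1.45 ± 0.06, adjusted p = 2.86e-05), and its change in IHC libraries was 0.39 ± 0.09. *Col10a1*, a marker of hypertrophic cartilage, had 6 reads in 26m OHC and none in the other groups, and it lies within *Nt5dc1* on the opposite strand, which averaged 4.94 to 7.63 RPKM over the groups.

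**Figure D4:**
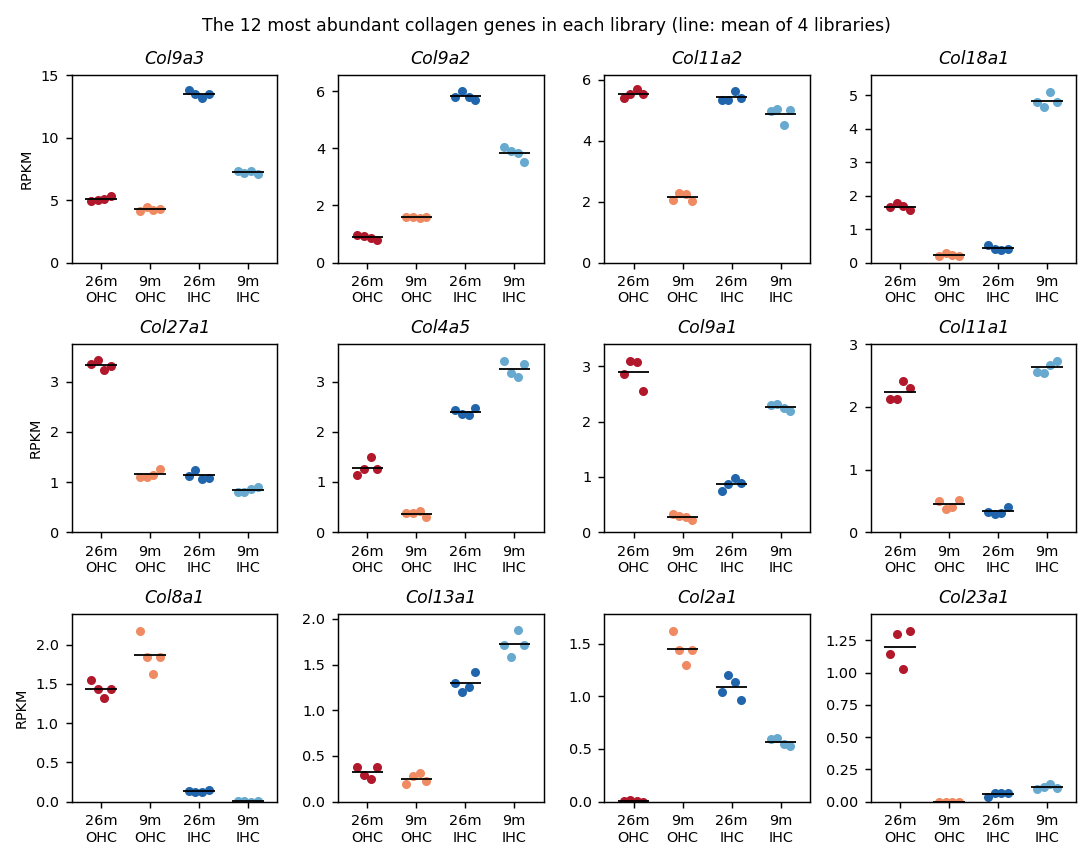
RPKM (y axis, from 0, own range per panel) of the 12 most abundant collagen genes in the 4 libraries of each labelled group (x axis), with the mean as a line. *Col9a3* and *Col9a2* are highest in 26m IHC, *Col9a1* and *Col11a1* are high in 26m OHC and 9m IHC, *Col18a1* is highest in 9m IHC, and *Col2a1* is near 0 in 26m OHC.

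Basement membrane collagens were led by *Col18a1* and *Col4a5*. *Col18a1*, the precursor of endostatin (chr10:77052178-77166548), was at 1.67, 1.77, 1.67 and 1.56 RPKM in 26m OHC, 0.211, 0.284, 0.232 and 0.207 in 9m OHC, 0.511, 0.400, 0.381 and 0.392 in 26m IHC and 4.79, 4.64, 5.10 and 4.80 in 9m IHC. It was highest in every 9m IHC library, and no 2 groups overlapped. It rose in 26m OHC over 9m OHC (2.41 ± 0.08, adjusted p = 1.14e-05), fell in 26m IHC against 9m IHC (-3.25 ± 0.09, adjusted p = 2.35e-06), and had the largest interaction on this scale among the 29 collagens tested (5.65 ± 0.12, adjusted p = 2.77e-08). *Slc19a1*, which overlaps *Col18a1* on the opposite strand, averaged 1.59 RPKM in 26m OHC, 1.73 in 9m OHC, 0.340 in 26m IHC and 0.442 in 9m IHC, another order. Since no source used here states a stranded protocol, the reads of any shared part cannot be told apart. None of the 221 windows of 75 bases in the longest *Col18a1* transcript was shared with another gene.

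*Col4a5*, whose human counterpart is mutated in Alport syndrome with kidney disease and hearing loss, was at 1.13, 1.25, 1.49 and 1.26 RPKM in 26m OHC, 0.378, 0.375, 0.416 and 0.306 in 9m OHC, 2.43, 2.35, 2.34 and 2.48 in 26m IHC and 3.42, 3.18, 3.09 and 3.36 in 9m IHC. Both IHC-labelled groups lay above both OHC-labelled groups in every library. It rose in 26m OHC over 9m OHC (1.56 ± 0.09, adjusted p = 6.71e-05) and differed by -0.43 ± 0.05 in 26m IHC against 9m IHC. Its usual partners were lower in each group, with *Col4a3* at 0.0110 RPKM in 26m OHC, 0 in 9m OHC, 0.131 in 26m IHC and 0.0199 in 9m IHC, and *Col4a4* at 0.724, 0, 0.0785 and 0.0890 RPKM in that order. *Col4a6*, which starts 1308 bases from *Col4a5* on the other strand, had 57 reads in 26m OHC and none in the other groups, so the neighbours did not share a pattern. *Col4a4* rose in 26m OHC to at least 209-fold the floor of 9m OHC (3 reads over its 4 libraries, where it had none).

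*Col4a1* and *Col4a2*, the chains of the common type IV network, sit head to head on chromosome 8 and overlap by 22 bases. Their start region is printed because both genes were found in the same groups (RefSeq, GRCm38.p6, chr8:11312555-11312854, + strand), with capitals for GGGCGG and CCAAT on either strand.
Col4a2 promoter: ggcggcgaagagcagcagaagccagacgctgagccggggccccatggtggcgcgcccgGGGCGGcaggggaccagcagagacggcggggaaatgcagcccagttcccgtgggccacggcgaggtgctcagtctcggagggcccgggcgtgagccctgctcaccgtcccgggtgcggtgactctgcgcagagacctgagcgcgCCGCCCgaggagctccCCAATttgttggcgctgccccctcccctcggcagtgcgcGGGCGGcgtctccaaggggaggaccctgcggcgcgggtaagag
The window holds 3 matches of GGGCGG, 1 of CCAAT and none of TATAAA, which do not overlap each other, and shares 78 bases with the window of *Col4a1*. Among 27025 mouse promoter windows of this length, GGGCGG occurs in 35.9%, CCAAT in 37.9% and TATAAA in 14.2%, against 62.9%, 34.3% and 14.3% of the 35 collagen windows in the table. *Col4a2* was at 0.515 ± 0.104 RPKM in 26m OHC, 0 in 9m OHC, 0.316 ± 0.045 in 26m IHC and 0 in 9m IHC, and *Col4a1* at 0.163, 0, 0.0926 and 0.00961 RPKM in the same order (SD, n = 2). Both were thus found mainly in the 2 groups labelled 26 months, and the ratio of *Col4a1* to *Col4a2* was 0.325 ± 0.088 in 26m OHC and 0.300 ± 0.096 in 26m IHC. Against the floor of 3 reads in a group, *Col4a2* was at least 92.7-fold higher in 26m OHC than in 9m OHC and at least 83.7-fold higher in 26m IHC than in 9m IHC. Both rises passed the test. *Col4a2* reached the 0.1 RPKM needed for testing only in the groups labelled 26 months, however, which fixed both directions. *Col4a1* rose in 26m OHC (at least 30.7-fold) and was too low to be tested in IHC libraries.

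*Col8a1*, a short network-forming chain of endothelial and corneal matrix (chr16:57624258-57754737), was at 1.55, 1.44, 1.32 and 1.44 RPKM in 26m OHC, 2.17, 1.84, 1.63 and 1.85 in 9m OHC, 0.139, 0.122, 0.118 and 0.152 in 26m IHC and 0.00634, 0.0125, 0 and 0.00677 in 9m IHC. Every OHC-labelled library lay above every IHC-labelled one, and no 2 groups overlapped. Its rise in 9m OHC over 9m IHC was the largest of that comparison among collagens (4.21 ± 0.10, adjusted p = 1.79e-06), with 782 reads in 9m OHC and 4 in 9m IHC, a ratio of 287 (95% exact interval 112 to 1060, counting error only). *Col8a2*, its partner, averaged 0.936 ± 0.023 RPKM in 26m OHC, 0.230 ± 0.0091 in 9m OHC, 0.0692 ± 0.018 in 26m IHC and 0.266 ± 0.011 in 9m IHC, so that the ratio of *Col8a1* to *Col8a2* ran from 8.19 in 9m OHC to 0.0245 in 9m IHC. *Col7a1*, the chain of anchoring fibrils, was at 0.448 RPKM in 26m OHC, 0 in 9m OHC, 0.286 in 26m IHC and 0.103 in 9m IHC. *Col15a1*, a multiplexin related to *Col18a1*, had the opposite order in the OHC-labelled groups, with 0 reads in 26m OHC, 148 in 9m OHC, 19 in 26m IHC and 0 in 9m IHC.

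Fibroblast collagens were scarce, and the chains of type I did not run together. *Col1a1* averaged 0.00563 RPKM in 26m OHC (3 reads), 1.10 ± 0.049 in 9m OHC, 0.307 ± 0.026 in 26m IHC and 0.561 ± 0.088 in 9m IHC, and *Col1a2* averaged 0.562, 0.0555, 0.650 and 0.0906 RPKM in the same order (SD, n = 2). *Col1a1*, the α1 chain, fell in 26m OHC against 9m OHC (-3.50 ± 0.07, adjusted p = 3.94e-06, with a ratio of 0.00507 and a 95% counting interval of 0.00104 to 0.0149), while *Col1a2*, the α2 chain, rose (2.09 ± 0.08, adjusted p = 1.9e-05). The ratio of *Col1a1* to *Col1a2* was 0.0102 ± 0.0055 in 26m OHC, 19.9 ± 1.9 in 9m OHC, 0.473 ± 0.045 in 26m IHC and 6.41 ± 1.2 in 9m IHC, whereas the protein uses a fixed ratio of the chains. *Col3a1*, the chain of reticular fibres, had 4, 1, 167 and 0 reads in 26m OHC, 9m OHC, 26m IHC and 9m IHC, and *Col5a1* and *Col5a2*, which nucleate type I fibrils, were likewise found mainly in 26m IHC, with 45 and 63 reads there and at most 6 in any other group. *Col14a1*, a fibril-associated collagen, averaged 0.458 RPKM in 26m OHC, 0.0158 in 9m OHC, 0.0354 in 26m IHC and 0.217 in 9m IHC, and *Col5a3* 0.265, 0.00175, 0.00143 and 0.0283 RPKM. *Col16a1* peaked in 26m IHC at 0.290 RPKM. The 6 type VI genes, which make beaded microfibrils around most connective tissue cells, were at or near 0, with *Col6a2* highest at 0.0606 RPKM in 9m IHC. None of the type VI genes, *Col12a1*, *Col5a1* or *Col5a2* reached the 0.1 RPKM needed for testing.

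Transmembrane collagens span the plasma membrane with a single pass. *Col13a1*, which is known at the neuromuscular synapse (chr10:61838236-61979108), was at 0.385, 0.297, 0.250 and 0.379 RPKM in 26m OHC, 0.198, 0.279, 0.309 and 0.229 in 9m OHC, 1.30, 1.20, 1.26 and 1.42 in 26m IHC and 1.71, 1.58, 1.88 and 1.72 in 9m IHC. Every IHC-labelled library lay above every OHC-labelled one, and the OHC-labelled groups overlapped. It fell in 26m OHC against 26m IHC (-1.70 ± 0.08, adjusted p = 1.72e-05) and in 9m OHC against 9m IHC (-2.37 ± 0.08, adjusted p = 6.78e-06). Between the OHC-labelled ages it differed by 0.28 ± 0.08, under the fold required, and the sign turned under median ratio scaling (-0.0226) and quantile normalization (-0.92). *Col23a1* (chr11:51289920-51583918) was at 1.14, 1.30, 1.03 and 1.32 RPKM in 26m OHC, 0 in each 9m OHC library, 0.0344, 0.0681, 0.0677 and 0.0675 in 26m IHC and 0.0960, 0.112, 0.139 and 0.108 in 9m IHC. Its 565 reads in 26m OHC against none in 9m OHC made a rise of at least 187-fold over the floor of 3 reads in the group. *Col25a1*, a transmembrane collagen of motor neurons and muscle, was found in 26m OHC alone but for 1 read (135 reads, 0.160 RPKM, against 0, 0 and 1 read in 9m OHC, 26m IHC and 9m IHC).

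Of the other collagens, *Col20a1* averaged 0.508 RPKM in 26m OHC, 0.0346 in 9m OHC, 0.621 in 26m IHC and 0.354 in 9m IHC. *Col19a1*, which ends 9205 bases from the end of *Col9a1*, had 194, 0, 0 and 130 reads in that order, and so like *Col9a1* was found in 26m OHC and 9m IHC. *Col26a1* had 89 reads in 26m IHC and none in the other groups, and it overlaps *Gm20485* on the same strand, which was at 1.69 RPKM in 26m IHC and 0 in the other groups. None of the 109 windows of 75 bases in its longest transcript was shared with another gene, and the source of its reads was not tested. *Col22a1* and *Col24a1* had at most 7 reads in a group.

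The labelled OHC age comparison moved the most collagens in 1 direction. Among 25 collagens that passed the filter of 0.1 RPKM (19 did not), 18 rose and 3 fell in 26m OHC against 9m OHC, at a background of 35.6% higher and 14% lower over the 14843 genes tested. The risers included 4 tectorial and cartilage genes (*Col9a1*, *Col11a1*, *Col11a2*, *Col27a1*), 7 basement membrane genes and 3 fibroblast genes, and the genes that fell were *Col2a1*, *Col1a1* and *Col15a1*, 1 of each of these classes. The median log2 difference was 1.65 among the collagens tested (2.09 with the 8 genes at 0 in 1 group set to their bound) and 0.45 among all genes tested, so that the libraries as wholes were shifted in the same direction. That split was 17 higher and 4 lower under median ratio scaling, beside 4325 and 3029 of 14918 genes. It was 11 higher and 5 lower under quantile normalization, beside 3708 and 3393 of 14843 genes. The median of all genes was 0.06 and -0.02 under these settings. All 11 were among the 18, so that quantile normalization ended 7 calls, those of *Col11a2* (0.83), *Col27a1* (0.87), *Col4a5* (0.52) and 4 collagens below 1 RPKM, and it added *Col9a2* (-1.83) and *Col8a1* (-1.27) to those lower. In this and each pairwise comparison below, some genes passed the filter only in the group where they were high. The filter fixed their direction, though not the call, so their calls are descriptions only. Among the risers here these were *Col1a2*, *Col4a1*, *Col4a2*, *Col4a4*, *Col5a3*, *Col7a1*, *Col14a1*, *Col19a1*, *Col20a1*, *Col23a1* and *Col25a1*. All the genes that fell were of this kind, as were the 8 genes at 0 in 1 group. The risers above the filter in both groups were *Col4a5*, *Col8a2*, *Col9a1*, *Col11a1*, *Col11a2*, *Col18a1* and *Col27a1*.

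In the labelled IHC age comparison, 6 of 24 collagens rose and 6 fell in 26m IHC against 9m IHC, at a background of 14.1% higher and 18.6% lower over 15711 genes. *Col4a2*, *Col1a2*, *Col3a1*, *Col26a1*, *Col16a1* and *Col8a1* rose, and *Col18a1*, *Col11a1*, *Col19a1*, *Col9a1*, *Col14a1* and *Col8a2* fell. All those that rose were below the filter of 0.1 RPKM in 9m IHC, and *Col14a1*, *Col19a1* and *Col8a2* were below it in 26m IHC. These genes passed the filter only in the group where they were high, so their direction was fixed by it and their calls are descriptions only. Passing in this way did not force a call, as *Col4a3* (0.94) and *Col23a1* (-0.42) were not called. The median log2 difference was 0.49 among the collagens and -0.09 among all genes. Of the 7 tectorial and cartilage genes tested, 2 fell, and *Col9a3*, *Col2a1*, *Col9a2*, *Col27a1* and *Col11a2* had positive differences of 0.15 to 0.89 that did not reach the fold required, although their adjusted p from limma was at most 0.026. *Col9a3* (1.09 under median ratio scaling) and *Col2a1* (1.10 under quantile normalization) were called higher under those settings, while *Col9a1* (-0.96) and *Col8a1* (0.78) were no longer called under quantile normalization.

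Between cell types at 9 months, 3 of 19 collagens rose and 12 fell in 9m OHC against 9m IHC, at a background of 17.3% higher and 48.5% lower over 15335 genes. The collagens that rose were *Col8a1*, *Col15a1* and *Col2a1*, and on the log2(RPKM + 0.1) scale the strongest falls were those of *Col18a1* (-3.89 ± 0.07, adjusted p = 1.03e-06) and *Col4a5* (-2.84 ± 0.06, adjusted p = 1.27e-06). That scale understates low genes, and against the floor of 3 reads in 9m OHC *Col19a1* was at least 29.3-fold, *Col7a1* at least 28.9-fold and *Col23a1* at least 17.7-fold lower. The median of all genes was -0.93 and that of the collagens -1.14, or -1.45 with the 4 genes at 0 in 1 group set to their bound, so the collagens and the table were shifted downwards alike. The split was 5 higher and 8 lower of 17 under median ratio scaling, beside 4011 and 5113 of 15116 genes. It was 5 and 5 of 19 under quantile normalization, beside 3945 and 4720 of 15335 genes. Neither setting called *Col9a2* or *Col11a2*. At 26 months, 12 of 28 rose and 9 fell in 26m OHC against 26m IHC, at a background of 29% higher and 34.4% lower over 16043 genes, with medians of 0.48 among collagens and -0.20 among all genes. On the log2(RPKM + 0.1) scale *Col23a1*, *Col8a1*, *Col8a2* and *Col11a1* rose most and *Col2a1*, *Col9a2*, *Col1a1* and *Col13a1* fell most. Among those that rose, scarcer genes had larger ratios, with *Col5a3* at 175 (95% counting interval 31 to 6980) and *Col19a1* at least 76.5-fold and *Col25a1* at least 53.4-fold higher. Among those that fell, *Col2a1* was at 0.00744 (0.00202 to 0.0192) and *Col1a1* at 0.0181 (0.00369 to 0.0535). *Col3a1* was at 0.0284 (0.00765 to 0.0741) and *Col26a1* was at least 25.01-fold lower. Were those 2 doubted labels swapped, which is a reading made with the data known, these would be the age comparisons in IHCs (3 higher, 12 lower) and in OHCs (12 higher, 9 lower). The only pairing that uses neither of those 2 labels, 26m OHC against 9m IHC, in which age and cell type change together, had 11 higher and 6 lower of 24, at a background of 26.3% and 35.6% over 15884 genes. Its medians were 0.80 among collagens and -0.33 among all genes, and it left *Col9a1* (0.34 ± 0.05), *Col11a2* (0.18 ± 0.04) and *Col11a1* (-0.22 ± 0.07, or 0.09 under median ratio scaling) under the fold required. The label 26m OHC is not free of doubt either. Its libraries summed to 1186 to 1200 RPKM for OHC markers and 168 to 172 for IHC markers, with *Slc26a5* at 1.85 RPKM.

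**Figure D5:**
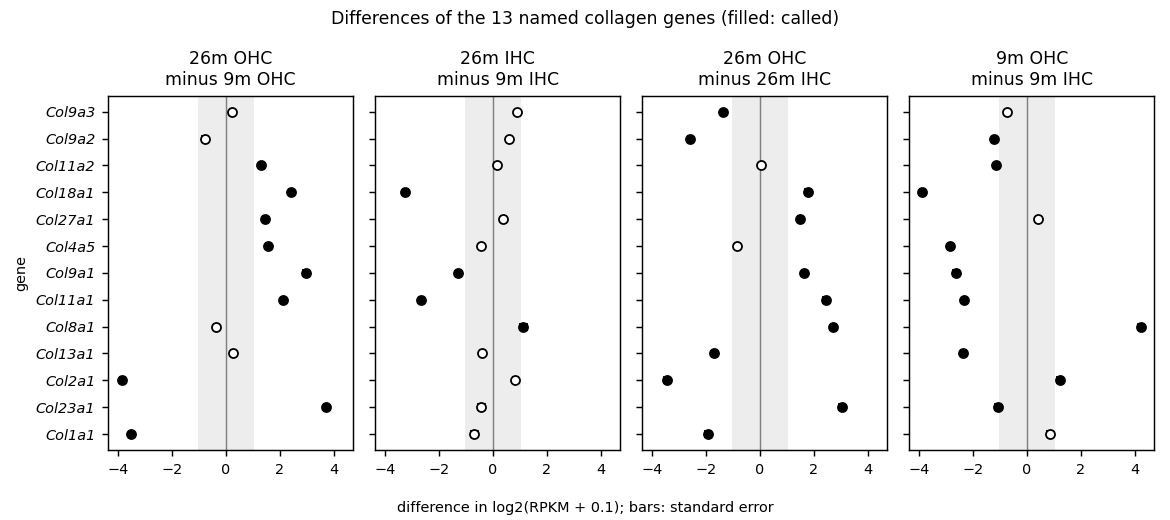
Difference in log2(RPKM + 0.1) of the 13 collagens that reached 1 RPKM in a group mean, for the 4 comparisons between labelled groups (x axis, with 0 as a line and the band from -1 to 1 shaded). Points are estimates with standard errors, most of them smaller than the point, and filled points were called. *Col2a1* and *Col1a1* lie far below 0 and *Col23a1* far above 0 in 26m OHC minus 9m OHC.

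The labelled age differences themselves differed between OHC and IHC libraries for 23 of 29 collagens (15 with a higher and 8 with a lower value in OHC libraries), at a background of 38.4% higher and 18.1% lower over 17056 genes. Under quantile normalization that split was 10 and 10, beside 4627 and 4596 of 17056 genes. Under median ratio scaling it was 13 and 9, beside 4959 and 4475 of 16904 genes. *Col27a1* and *Col11a2* were under the fold required in both. Quantile normalization also ended the call of *Col4a5* (0.75). Some called genes reached the filter in a lone group, which favoured a difference, so their calls are descriptions only. These were *Col4a4*, *Col5a3* and *Col25a1* through 26m OHC, *Col3a1*, *Col16a1* and *Col26a1* through 26m IHC, and *Col15a1* through 9m OHC. *Col18a1*, *Col11a1*, *Col9a1* and *Col23a1* had the largest positive values and *Col2a1* and *Col1a1* the largest negative ones. The genes that did not pass were *Col1a2*, *Col4a1*, *Col4a2*, *Col4a3*, *Col9a3* and *Col13a1*, of which *Col9a3* (-0.64 ± 0.05) was called lower at -1.23 under median ratio scaling and -1.22 under quantile normalization, and *Col13a1* turned sign under the second (-0.79). *Col1a2* was higher by 2.09 ± 0.08 in 26m OHC than in 9m OHC and by 1.99 ± 0.14 in 26m IHC than in 9m IHC, with an interaction of 0.10 ± 0.17.

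Related genes were counted by list, beside a share of all genes tested of 35.6% higher and 14% lower in 26m OHC against 9m OHC and of 14.1% higher and 18.6% lower in 26m IHC against 9m IHC. Of 20 genes for hydroxylases and chaperones of collagen folding, 6 rose and 1 fell of 18 tested in 26m OHC against 9m OHC, and 5 rose and 5 fell of 20 in 26m IHC against 9m IHC (median log2 differences 0.78 and -0.09), the OHC share being near that of all genes. *P4hb*, the β subunit of prolyl 4-hydroxylase, led the list in the IHC-labelled groups, at 26.0 RPKM in 26m OHC, 30.8 in 9m OHC, 161 in 26m IHC and 158 in 9m IHC. *P4ha3*, a catalytic subunit of the same enzyme, averaged 7.70, 0.00379, 0.0563 and 2.25 RPKM in that order, high in the same groups as *Col9a1* and *Col11a1*. *Crtap*, the cartilage-associated protein of prolyl 3-hydroxylation, averaged 7.90 RPKM in 26m OHC, 0 in 9m OHC, 4.57 in 26m IHC and 1.03 in 9m IHC. Among 14 processing and cross-linking genes, 4 rose and 1 fell of 9 in the OHC comparison and 4 rose and 2 fell of 10 in the IHC one. *Lox*, lysyl oxidase, the enzyme that starts cross-linking, was highest in 9m IHC, with 5.23 RPKM in 26m OHC, 2.67 in 9m OHC, 10.7 in 26m IHC and 68.3 in 9m IHC.

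Counts of the following lists stand beside the same shares of all genes (35.6% higher and 14% lower in the labelled OHC age comparison, 14.1% and 18.6% in the IHC one), and with so few members none is read as particular to its list. Of the 10 collagen receptors, 4 rose and 1 fell of 8 tested in 26m OHC against 9m OHC, and 1 rose and 2 fell of 7 in 26m IHC against 9m IHC. *Itgb1*, the β1 integrin shared by the collagen-binding integrins, averaged 17.5 RPKM in 26m OHC, 12.5 in 9m OHC, 18.7 in 26m IHC and 37.9 in 9m IHC. *Ddr2*, a receptor kinase for fibrillar collagen, averaged 3.52, 0.536, 0.4999 and 0.110 RPKM. Collagenases and their inhibitors rose in 5 of 7 tested in 26m OHC against 9m OHC, and 3 rose and 2 fell of 8 in 26m IHC against 9m IHC. *Mmp12*, the macrophage elastase, was at 89.1 RPKM in 26m OHC and at most 0.0114 in the other groups, and *Ctsk*, cathepsin K, at 23.3 RPKM in 26m OHC and at most 0.293. The fibril-binding proteoglycans *Lum* and *Dcn* each exceeded every single collagen in each group mean, *Lum* with 75.4 RPKM in 26m OHC, 67.4 in 9m OHC, 52.0 in 26m IHC and 125 in 9m IHC. Of that list 3 rose of 5 in the OHC comparison and 2 rose and 1 fell of 7 in the IHC one. Laminins and other basement membrane partners rose in 3 and fell in 2 of 9 in the OHC comparison, and rose in 2 and fell in 3 of 7 in the IHC one.

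Non-collagen proteins of the tectorial membrane, and stereocilin, which links stereocilia to it, were the last list. Of these 6 genes, 4 rose and 1 fell in 26m IHC against 9m IHC, and 3 rose and 1 fell in 26m OHC against 9m OHC, beside 14.1% and 18.6% of all genes in the IHC comparison and 35.6% and 14% in the OHC one. *Ceacam16*, a secreted protein of the tectorial membrane, averaged 250.1 RPKM in 26m OHC, 303 in 9m OHC, 8270 in 26m IHC and 1919 in 9m IHC, with 26m IHC first and 9m IHC next as for *Col9a3* and *Col9a2*. *Tectb*, β-tectorin, averaged 0.108, 0.982, 76.7 and 6.61 RPKM. *Sox9*, the transcription factor that drives *Col2a1*, *Col9a1* and *Col11a2* in cartilage, averaged 36.8 RPKM in 26m OHC, 25.2 in 9m OHC, 4.03 in 26m IHC and 24.1 in 9m IHC, and fell in 26m IHC against 9m IHC (-2.55 ± 0.04, adjusted p = 3.79e-07).

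Markers of other cell types moved with the groups. Macrophage markers summed to 958 to 986 RPKM in 26m OHC libraries (8 of 8 above 0), 0.158 to 0.413 in 9m OHC (7 of 8 at 0), 47.8 to 50.7 in 26m IHC (8 of 8 above 0) and 2.68 to 3.16 in 9m IHC (7 of 8 above 0). Fibrocyte and fibroblast markers other than collagens summed to 1334 to 1358 RPKM in 26m OHC, 374 to 381 in 9m OHC, 365 to 370.3 in 26m IHC and 255 to 263 in 9m IHC, with *Dpt* at 0 in all but 9m IHC. Of that list, *Otor*, *Coch*, *Otos*, *Pou3f4*, *Car3* and *Apod* were highest in 26m OHC. *Pdgfra* was highest in 26m IHC (24.7 RPKM), *Dcn* in 9m OHC (27.0) and *Lum* in 9m IHC (125). Supporting cell markers summed to 932 to 965 RPKM in 26m OHC, 561 to 585 in 9m OHC, 588 to 602 in 26m IHC and 1752 to 1778 in 9m IHC, all 9 above 0 in each group. None of the 9 followed the order of that sum, and *Fgfr3* and *Tectb* were highest in 26m IHC (41.6 and 76.7 RPKM). Endothelial markers summed to 25.6 to 26.1 RPKM in 26m OHC (4 of 6 above 0, *Pecam1* and *Cdh5* at 0) and to at most 0.749 in the other groups. *Emcn* alone made 25.3 RPKM of that sum. Pericyte and smooth muscle markers summed to at most 1.67, with *Rgs5* at 0 in each group. Schwann cell markers summed to 33.2 to 35.3, 31.9 to 33.4, 13.8 to 14.9 and 52.4 to 55.2 RPKM in 26m OHC, 9m OHC, 26m IHC and 9m IHC. Eosinophil and neutrophil markers summed to 391 to 405 RPKM in 26m IHC (6 of 6 above 0) and at most 4.415 in the other groups. Red cell markers summed to 5920 to 6149 RPKM in 26m IHC (5 of 5) and at most 407 in the others. Cartilage and bone markers other than collagens stayed at 0.946 to 4.47 RPKM summed over 9 genes in any library, with *Matn1* at 0 in all 16. The part of these cells in the collagen differences was not tested.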

How the data were processed

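RNA-seq was performed on inner and outer hair cells of CBA mice at 9 and 26 months, 4 libraries per labelled group. Per the labels and methods, cDNA was amplified from about 1,000 cells a library, sequenced on an Illumina HiSeq and mapped to GRCm38 (mm10) in CLC Genomics Workbench. The authors deposited RPKM values (reads scaled to transcript length and mapped reads) for each library and no counts were used here. The mapper version, counting rules and strand are not given in the sources used here.

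The number of mapped reads was worked out from the smallest steps in RPKM, which gave whole reads within 0.001 for 15700 of 20986 detected genes (74.81%). They were used for depth, floors and counting intervals only, which cover counting error and not amplification. Libraries that differed by sampling noise were averaged. Genes with a mean of at least 0.1 RPKM in a compared group were tested with limma 3.58.1 (lmFit and eBayes with trend) in R 4.3.3 on log2(RPKM + 0.1), so that fold changes of low genes are understated. A gene was called where the p adjusted over all genes tested (Benjamini-Hochberg) was at most 0.1 and the log2 difference was 1 or more either way. Differences are given with standard errors. A gene at 0 in a group was compared with a floor of 3 reads over its 4 libraries, and low counts with exact 95% intervals. Python 3.11.15, pandas 2.3.3, numpy 2.4.6, scipy 1.17.1 and matplotlib 3.10.9 were used for the rest.

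Collagens with a mean of 1 RPKM in a group were named with their means, the 12 highest with every library, and the others by name, count and range. Classes and gene lists were assigned from textbook roles. The collagens, their classes and all lists were chosen with earlier results of these data known, so counts over them are descriptions. Alternatives were pseudocounts of 0.01 and 1, other filters, other scalings, 4 libraries as separate samples, 1 fit for all groups, a replicate block, stricter thresholds and leaving out each averaged replicate. Coding sequences came from GENCODE M21 and promoters from RefSeq (GRCm38.p6), in which 35 of the 44 collagens matched. The scripts were tested on simulated data. Libraries of other tissues in the study were not analysed here.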

Additional observations from a re-analysis of the deposited data

Results flagged for a closer look

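The labelled age difference was compared between OHC and IHC libraries for 29 collagens by an interaction term, (26m OHC minus 9m OHC) minus (26m IHC minus 9m IHC), in limma on log2(RPKM + 0.1), and 23 differed. Of these 15 were higher and 8 lower, beside 38.4% higher and 18.1% lower of all 17056 genes tested. Among the 23, *Col3a1*, *Col4a4*, *Col5a3*, *Col15a1*, *Col16a1*, *Col25a1* and *Col26a1* reached the filter of 0.1 RPKM in a lone group, which favoured a difference. The interaction value is the same if the labels 26m IHC and 9m OHC are exchanged. Groups held 2 averaged samples, so no search for a sample far from the others was made.

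Among the tectorial and cartilage collagens the interaction was 4.78 for *Col11a1*, 4.28 for *Col9a1*, 1.17 for *Col11a2* and 1.06 for *Col27a1*. It was -4.67 for *Col2a1* and -1.38 for *Col9a2*. Chains that enter the same protein thus had opposite signs, as in *Col9a1* and *Col9a2*. The call of *Col27a1* was lost without the second averaged replicate of 26m IHC or of 9m IHC, where its value was just under the fold required (0.9956 and 0.9953).

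Among the basement membrane collagens it was 5.65 for *Col18a1*, 3.12 for *Col4a4*, 2.77 for *Col8a2*, 1.99 for *Col4a5* (0.75 under quantile normalization, no longer called) and 1.53 for *Col7a1*, and it was -2.33 for *Col15a1* and -1.49 for *Col8a1*. Among the fibroblast collagens it was 3.49 for *Col14a1* and 2.18 for *Col5a3*, and it was -2.81 for *Col1a1*, -1.39 for *Col3a1* and -1.08 for *Col16a1*. Of the transmembrane collagens, *Col23a1* had 4.12 and *Col25a1* had 1.39. Of the others, *Col19a1* had 3.49, *Col20a1* had 1.52 and *Col26a1* had -1.36. Values of genes at 0 in a group depend on the pseudocount and give no bound.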

How the results depend on the processing

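Counts of collagens called were the same as given in the report with no filter, 4 libraries as separate samples, 1 fit for all groups and an adjusted p of 0.01. Counts of all genes called higher and lower follow in brackets. With a pseudocount of 1 RPKM, 0 rose and 2 fell of 24 in 26m IHC against 9m IHC (892 and 1394 of 15711). In 26m OHC against 9m OHC 6 rose of 25, and *Col2a1* and *Col1a1* fell (3141 and 1056 of 14843). The share that rose was near that of all genes. In 9m OHC against 9m IHC 1 rose and 5 fell of 19 (1606 and 4696 of 15335). In 26m OHC against 26m IHC 5 rose and 3 fell of 28 (3041 and 3369 of 16043). In 26m OHC against 9m IHC 2 rose and 3 fell of 24 (2597 and 3527 of 15884). The interaction had 5 higher and 1 lower of 29 (4183 and 1578 of 17056). A filter of 1 RPKM leaves fewer genes. With it, 0 rose and 3 fell of 10 in the IHC age comparison (1214 and 1882 of 11409). In the OHC age comparison 7 rose of 12, and *Col2a1* and *Col1a1* fell (4035 and 1384 of 12156). In 9m OHC against 9m IHC *Col2a1* and *Col8a1* rose and 7 fell of 12 (1985 and 5395 of 11744). In 26m OHC against 26m IHC 6 rose and 4 fell of 12 (3679 and 3869 of 12575). In 26m OHC against 9m IHC 3 rose of 11, and *Col9a2*, *Col18a1*, *Col4a5* and *Col13a1* fell (3201 and 4118 of 12598). The interaction had 7 and 4 of 13 (5202 and 2036 of 13308). Under quantile normalization 11 rose and 5 fell of 25 in the OHC age comparison (3708 and 3393 of 14843). In 9m OHC against 9m IHC 5 rose and 5 fell of 19 under that setting (3945 and 4720 of 15335). Median ratio scaling gave 5 higher of 17 there (4011 and 5113 of 15116). A limma treat test against a log2 fold change of 1 left 3 lower of 24 in the IHC age comparison (1613 and 2253 of 15711).

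Directions turned for genes that had not been called. In 26m OHC against 9m OHC, *Col9a3* had -0.15 and *Col13a1* -0.0226 under median ratio scaling and -0.28 and -0.92 under quantile normalization. Under quantile normalization *Col9a3* had 0.0898 in 9m OHC against 9m IHC and *Col13a1* had -0.79 in the interaction, and under median ratio scaling *Col11a1* had 0.0886 in 26m OHC against 9m IHC. Among all genes, the higher share of calls in 26m OHC against 9m OHC was 71.8%, against 58.8% under median ratio scaling and 52.2% under quantile normalization, in 9m OHC against 9m IHC 26.3%, 44% and 45.5%, and in the interaction 68%, 52.6% and 50.2%. The causes were not tested.

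Leaving out 1 averaged replicate gave 6 to 7 higher and 6 lower in the IHC age comparison, 18 and 3 in the OHC one, 3 and 12 in 9m OHC against 9m IHC, 12 and 8 to 9 in 26m OHC against 26m IHC, and 14 to 15 and 8 in the interaction. The lone sample was then assumed to vary like the other group. Same-numbered samples deviated together (correlations of 0.167 to 0.351 over 7771 genes), but there are only 2 pairs and the labels give a number only, so the numbers were not taken as a pairing. With the replicate block the counts in all comparisons were as without it, such as 18 higher and 3 lower in the OHC age comparison. Members with under 10 reads in a group are limited by depth.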
